A study of Mus musculus with 2 samples.

Results

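The IL-1 receptor family was followed through open chromatin in mouse regulatory T (Treg) cells with and without transketolase, an enzyme of the non-oxidative pentose phosphate pathway encoded by Tkt. The family was taken as 8 genes, Il1r1, Il1r2, Il1rl1, Il1rl2, Il18r1, Il18rap, Il1rap and Sigirr, chosen by name, out of 19459 genes that carried a peak in either library. Its members were the peaks that the authors had assigned to those symbols, which were 4 of 19680 peaks in TKT cKO Treg cells and 16 of 34440 peaks in WT Treg cells. ATAC-seq marks open chromatin by the insertion of sequencing adapters with Tn5 transposase, and a peak is a region with more insertions than its surroundings. The TKT cKO library came from Foxp3cre/+ TKTfl/fl females, in which Foxp3-driven Cre deletes Tkt in Treg cells, and the WT library came from Foxp3cre/+ females with intact Tkt. All mice were C57BL/6, 7 weeks old, untreated and described as chimeric. The Foxp3-Cre allele, which both genotypes carried, lay on 1 of the X chromosomes. Before any sort, X inactivation thus leaves Cre in a part of the Treg cells of each animal. From these animals CD4+CD25+YFP+ cells of spleen and lymph node were sorted, 50000 for a library. The share of Cre-bearing cells among the sorted cells was not measured here. With 1 library per genotype, each difference is one between libraries, with no replicate check and no test.

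Receptors of this family carry immunoglobulin domains outside the cell and, in most members, a TIR domain inside it that recruits the adaptor MyD88 and IRAK kinases and leads to NF-kappaB and MAP kinase signalling. A ligand-binding chain (Il1r1 for IL-1, Il1rl1, also called ST2, for IL-33, Il1rl2 for IL-36, Il18r1 for IL-18) pairs with an accessory chain (Il1rap, or Il18rap in the IL-18 receptor). Il1r2 is a decoy that binds IL-1 and lacks the TIR domain, and Sigirr is an inhibitory member. ST2 is known from Treg cells of non-lymphoid tissue, and the IL-18 receptor from activated T helper 1, natural killer and some Treg cells. The genes Il1r2, Il1r1, Il1rl2, Il1rl1, Il18r1 and Il18rap lie in this order on chromosome 1, whereas Il1rap lies on chromosome 16 and Sigirr on chromosome 7.

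The stretches before the start sites of 6 members are shown because they differ in base composition and in whether a peak lay over them. Each is the 250 bases upstream of a start site, 5′ to 3′ on the plus strand, from RefSeq (GRCm38.p6, the assembly of mm10), which held 7 of the 8 genes. Capitals mark matches to the motif words searched.
Il18rap, chr1:40515112-40515361: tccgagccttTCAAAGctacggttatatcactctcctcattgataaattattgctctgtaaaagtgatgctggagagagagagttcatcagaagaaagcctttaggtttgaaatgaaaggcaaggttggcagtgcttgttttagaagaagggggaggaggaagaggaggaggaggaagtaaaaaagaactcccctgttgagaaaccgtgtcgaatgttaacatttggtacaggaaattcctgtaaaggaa
Il18r1, chr1:40465302-40465551: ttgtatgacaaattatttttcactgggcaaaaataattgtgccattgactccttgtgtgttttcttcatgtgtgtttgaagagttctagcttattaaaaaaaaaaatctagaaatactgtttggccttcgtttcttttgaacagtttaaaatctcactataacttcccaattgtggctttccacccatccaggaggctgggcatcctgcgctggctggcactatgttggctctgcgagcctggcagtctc
Il1rl1, chr1:40429320-40429569: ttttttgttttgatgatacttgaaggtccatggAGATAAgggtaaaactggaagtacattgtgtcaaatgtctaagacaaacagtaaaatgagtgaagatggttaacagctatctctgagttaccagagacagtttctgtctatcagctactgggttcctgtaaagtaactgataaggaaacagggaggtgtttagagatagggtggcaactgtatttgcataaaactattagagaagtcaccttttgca
Il1rl2, chr1:40324339-40324588: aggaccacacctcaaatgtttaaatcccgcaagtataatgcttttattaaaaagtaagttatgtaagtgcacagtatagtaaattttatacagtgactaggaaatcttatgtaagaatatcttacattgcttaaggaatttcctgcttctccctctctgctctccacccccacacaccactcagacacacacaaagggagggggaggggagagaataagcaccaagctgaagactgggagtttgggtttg
Il1r2, chr1:40085843-40086092: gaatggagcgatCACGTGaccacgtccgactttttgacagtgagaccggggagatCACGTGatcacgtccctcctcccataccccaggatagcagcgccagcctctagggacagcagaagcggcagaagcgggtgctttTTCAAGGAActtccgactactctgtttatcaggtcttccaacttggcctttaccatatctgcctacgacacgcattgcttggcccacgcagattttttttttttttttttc
Il1rap, chr16:26581455-26581704: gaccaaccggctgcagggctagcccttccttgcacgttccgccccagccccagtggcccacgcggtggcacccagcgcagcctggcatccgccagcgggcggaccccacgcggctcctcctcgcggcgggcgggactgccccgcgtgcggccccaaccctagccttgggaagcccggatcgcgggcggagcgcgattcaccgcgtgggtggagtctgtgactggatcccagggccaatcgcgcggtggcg

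The printed windows ranged widely in base composition. The windows of Il1rl1, Il18r1, Il1rl2 and Il18rap shown here had a GC content of 37.6%, 40.8%, 41.2% and 42.0%, all in the lowest of 5 equal GC bins of the 32851 RefSeq windows, whose median was 52.4%. The Il1rap window had a GC content of 74.4% with 30 CpG pairs and lay in the highest bin, and the Il1r2 window, at 51.2% with 14 CpG pairs, lay near the median. Over all windows a cKO peak lay over 31.5% and a WT peak over 36.8%. In the lowest GC bin these shares were 4.92% for cKO peaks and 6.86% for WT peaks, and in the highest bin 63.4% for cKO peaks and 71.9% for WT peaks. Counting every start site that the RefSeq promoter table holds for the members, 3 of 11 windows lay under a cKO peak and 7 of 11 under a WT peak. The Il18r1 windows lie close together and share 1 WT peak, so these are not 11 separate places.

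Coverage of the printed windows differed by gene. The windows of Il1rap and Il1r2 lay entirely, at 250 of 250 bases, under a peak in cKO cells and in WT cells. The Il1rl2 window was covered over 74 bases in cKO cells and 97 bases in WT cells, at its end next to the start site. The Il18rap window was covered over 0 bases in cKO cells and 250 bases in WT cells, and the Il18r1 window over 0 bases in cKO cells and 5 bases in WT cells. The Il1rl1 window lay under no peak in either library. The low-GC windows of Il1rl2, Il18r1 and Il18rap thus each met a peak in WT cells, that of Il18r1 by 5 bases only. Of these, the Il1rl2 window alone also met a peak in cKO cells. Further Il18r1 windows, not printed, had a GC content of 50.4% and 56.4%. In the same order, they were covered over 74 and 250 bases in WT cells, and over 0 bases in cKO cells.

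The words searched on both strands were AGATAA for GATA factors, TGANTCA for AP-1, CCGGAAG for ETS factors, TGTGGTT for RUNX factors, TGTTTAC for forkhead factors, TTCNNNGAA for STAT factors, CTTTGA for TCF and LEF factors and, for NF-kappaB, GGG followed by 2 bases of any kind and TTTCC. The GATA word occurred 217 bases before the Il1rl1 start shown above and again 103 bases before a second Il1rl1 start, and was present in 9.99% of all windows. The forkhead word (3.17% of all windows) also occurred at that second start. The STAT word (7.02% of all windows) stood 111 bases before the Il1r2 start, as TTCAAGGAA, and 219 and 152 bases before a further start of Il18r1 inside the WT peak, as TTCTGGGAA and TTCCCAGAA. The TCF and LEF word (13.8% of all windows) stood 240 bases before the Il18rap start. The AP-1, ETS, RUNX and NF-kappaB words, present in 6.75%, 6.91%, 4.4% and 1.41% of all windows, had no match in the 11 member windows. CACGTG, the E-box read by basic helix-loop-helix factors, was added after the sequences had been seen: the Il1r2 window holds it at 2 places, as do 0.429% of all windows, and 6.02% hold it at least once. The AP-1, STAT and E-box words are their own reverse complements. No match in a member window overlapped another, and a match is a run of letters, not a measured binding site.

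Across the family, 4 of the 8 genes had a peak in cKO cells and all 8 had one in WT cells. Il1rl2, Il18r1, Il1rap and Sigirr each had 1 cKO peak, and Il1r1, Il1r2, Il1rl1 and Il18rap had none. All 4 cKO peaks overlapped a WT peak by at least 1 bp (100% of 4, Wilson 95% interval 51.0 to 100), against 97.6% over all cKO peaks. Of the 16 WT peaks, 4 overlapped a cKO peak (25.0%, 10.2 to 49.5), against 56.1% over all WT peaks. This share depended on how peaks were assigned and on list length. It was 41.2% (7 of 17) for peaks inside the gene bodies, where 3 shared peaks over Il1r2 count, and 40.0% (8 of 20) within 10 kb of them. With the WT list cut to the length of the cKO list it was 50.0% (4 of 8), against 83.0% of all WT peaks. In the promoter class, which in the authors' annotation reaches 3 kb from a start site, 2 of 5 family WT peaks overlapped a cKO peak, against 74.3% of all WT promoter peaks. In the other classes it was 2 of 11, against 41.4%. Intervals cover counting error only, and neighbouring peaks are not independent. Fewer cells with a site open and less opening per cell cannot be told apart in bulk libraries.

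Higher-scoring WT peaks more often met a cKO peak, as the plot by score bin shows, so the family was also set beside WT peaks of like score. The score is the authors' own value per peak. It was ranked only within its list, and each peak is placed by the percentage of its list that scored lower. The lists differ in length, so a position in one list and a position in the other show no change. The 12 WT peaks without a cKO partner lay at a median of 34.2% and the 4 with a partner at 75.7%. When each of the 16 peaks was given the overlap of all WT peaks in its class and score bin (10 equal bins), the mean was 50.3%, and with the same width bin (4 equal bins) as well it was 46.8%. Of the genes that carried any WT peak, 71.8% carried a cKO peak too. The share was 64.0% for genes with 1 WT peak, as in Il1r1, Il1r2, Il1rl2 and Il1rap, of which 2 of 4 had a cKO peak. It was 78.2% with 2 WT peaks, as in Sigirr, 86.7% with 3, as in Il1rl1 and Il18rap, of which 0 of 2 had a cKO peak, and 93.7% with 4, as in Il18r1.

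**Figure D1:**
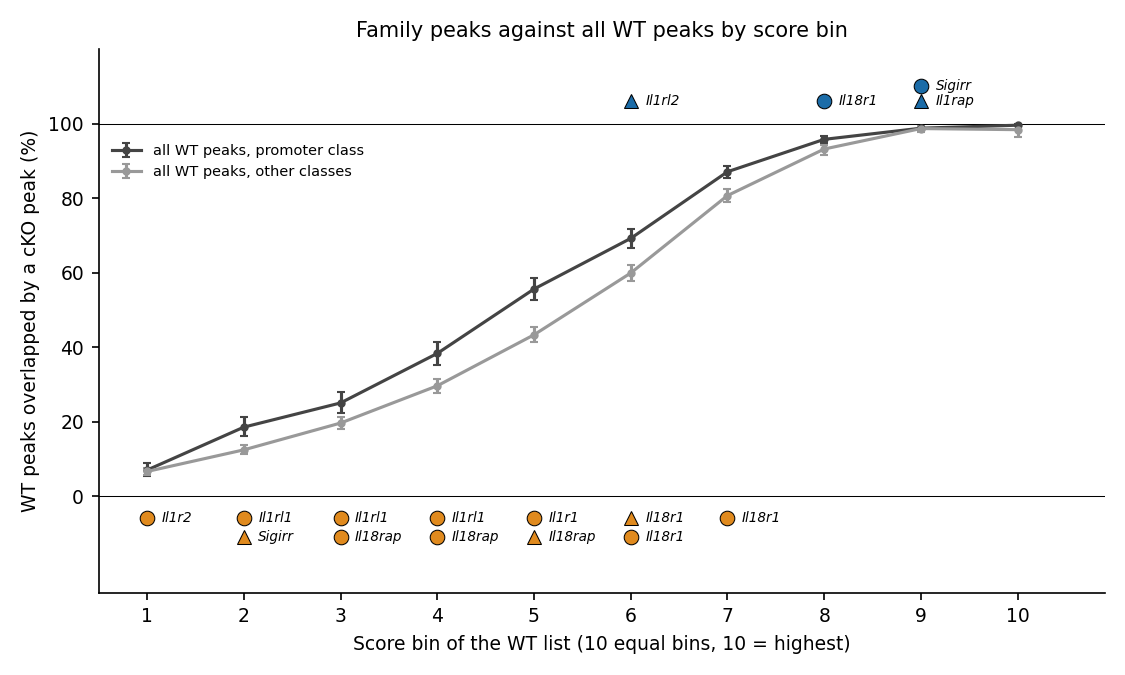
Percentage of WT peaks with a cKO partner (y axis) in 10 equal bins of the WT list by score (x axis), for promoter class and other peaks, with 95% Wilson intervals. Symbols above 100 are family WT peaks with a cKO partner and symbols below 0 those without (triangles promoter class, circles other classes), and all 4 peaks above are in bins 6 to 9 while the 12 below are in bins 1 to 7.

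The IL-18 receptor genes carried 7 of the 16 WT peaks of the family. Il18r1 encodes the chain that binds IL-18, and Il18rap the accessory chain that the complex needs for signalling. Together they had 1 peak in cKO cells and 7 in WT cells. Of the 7 WT peaks, 1 was shared (14.3%, 2.57 to 51.3), against 56.1% over all WT peaks. Among WT peaks of the same class, score bin and width bin, the share with a cKO partner ran from 8.12% to 99.6% across the 7. The shared peak lay in intron 4 of 9 of Il18r1, at chr1:40475593-40476934 in cKO cells and chr1:40475583-40476962 in WT cells. Its cKO peak scored above 39.8% of the cKO list and its WT peak above 70.6% of the WT list. The borders hardly differed, with 1342 bp in cKO cells and 1380 bp in WT cells, and centres 9 bp apart.

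The remaining Il18r1 peaks flanked the shared one and were absent from the cKO list. The promoter peak at chr1:40465547-40466255 had no cKO partner and was 709 bp wide in WT cells, above 54.5% of the WT list. It began at the most upstream Il18r1 start and ran downstream over the other starts. The intron 2 peak at chr1:40469715-40470339 was 625 bp wide in WT cells, above 51.5% of the list. The intron 5 peak at chr1:40479483-40479989 was 507 bp wide in WT cells, above 64.3% of the list, and its nearest cKO peak was 2.55 kb away. These 3 were the unpartnered family peaks of the upper part of the WT score order, beyond the median. Of all WT peaks of their class and score bin, 69.2% had a cKO partner for the promoter peak and 59.9% for the intron 2 peak. With the same width bin as well, these shares were 55.4% of 336 peaks and 23.1% of 255. For the intron 5 peak, 80.7% of the 1857 WT peaks of its class and score bin had a cKO partner. Among the 96 of those in the narrowest width bin, 35.4% did.

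Il18rap had no cKO peak and 3 WT peaks. Its promoter peak in WT cells, at chr1:40514807-40516700, was 1894 bp wide, the widest of the peaks assigned to members, and scored above 46.3% of the WT list. Among all WT promoter peaks of that score bin 55.6% had a cKO partner, and among the 274 that were also in the widest bin 235 did, or 85.8%. The nearest cKO peak was 37.9 kb away, which was the shared intron 4 peak of Il18r1. Of the intronic peaks, the one in intron 6 of 12 was 1015 bp wide and scored above 38.0% of the WT list, and the one in intron 11 was 435 bp wide and scored above 29.0%. From the Il18r1 intron 4 peak to the far end of Il18rap, no cKO peak was listed. Natural killer cells also carry the IL-18 receptor. Of 4 markers of these cells 2 (Klrb1c and Eomes) had a peak in cKO cells and in WT cells. Ncr1 and Klrd1 had none in either. None of the 4 Klrb1c peaks in WT cells was of the promoter class. Eomes had 1 promoter peak in WT cells, and its peaks stood low, above 1.96% of the cKO list and 18.7% of the WT list. The sort took CD4+CD25+YFP+ cells, but its purity is unknown here. A part of natural killer cells in the IL-18 receptor peaks was not tested.

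Il1rl1, which encodes the IL-33 receptor ST2, had no cKO peak and 3 WT peaks. They lay at chr1:40399226-40400452, chr1:40412621-40413563 and chr1:40425310-40425734, with widths of 1227, 943 and 425 bp. In score they stood above 30.4%, 13.1% and 25.1% of the WT list, all below its median. The authors' annotation placed them 29118, 16007 and 3836 bp upstream of the start that follows the Il1rl1 window printed above, and called all of them distal intergenic. The RefSeq gene body, chr1:40404864-40465418, begins farther upstream. By that body, the pair nearest to the annotated start lies inside the gene and the farthest peak lies 4.41 kb ahead of it. Of all WT peaks of their class and score bin, 29.6%, 12.4% and 19.6% had a cKO partner. With the same width bin as well, these shares were 47.0% of 489 peaks, 14.4% of 720 and 8.12% of 1158. Neither of the Il1rl1 promoter windows lay under a peak in cKO cells or in WT cells. Group 2 innate lymphoid cells and mast cells are rich in ST2. Of 5 markers of the innate cells 1 (Nmur1) had a cKO peak and 3 (Nmur1, Il9r and Il13) had a WT peak. Il17rb and Calca had none in either library. Of 6 mast cell and basophil markers 2 (Kit and Hdc) had a cKO peak and 3 (Kit, Hdc and Cpa3) had a WT peak. Fcer1a, Ms4a2 and Mcpt8 had none. In WT cells the peaks assigned to Nmur1, Il13, Hdc and Cpa3 all lay outside the promoter class, while Il9r and Kit had 1 promoter peak each. Here too the purity of the sort is unknown, and a part of these cells in the Il1rl1 peaks was not tested.

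Il1rl2, encoding the IL-36 receptor chain, carried a promoter peak in both libraries. It spanned chr1:40324515-40325409 in cKO cells (895 bp, above 44.0% of the list) and chr1:40324492-40325597 in WT cells (1106 bp, above 55.7%). Il1r1, the signalling receptor for IL-1, had no cKO peak and 1 WT peak, at chr1:40270643-40271597 in its intron 1, 955 bp wide and above 42.4% of the WT list. That peak lay 4057 bp from the nearest start, and the Il1r1 promoter windows were under no peak in either library. Among WT peaks of its class and score bin, 43.3% had a cKO partner.

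For Il1r2, the decoy receptor, the assigned gene and the position gave different pictures. The authors' assignment left it with no cKO peak and 1 WT peak of 401 bp, 6662 bp upstream of the start used there and above 3.02% of the WT list. The RefSeq body of Il1r2, chr1:40084692-40125230, however, held 3 peaks in cKO cells and 3 in WT cells, and all of them were shared. They had been assigned to the predicted gene models Gm16894 and Gm37347. The peak over the Il1r2 window printed above, and over the start site that follows it, spanned chr1:40085084-40087008 in cKO cells (1925 bp, above 44.9% of the list) and chr1:40084605-40087656 in WT cells (3052 bp, above 72.9%). The intron 3 peak scored above 22.9% of the cKO list and above 47.5% of the WT list, and the intron 5 peak above 51.3% in cKO cells and above 59.1% in WT cells. By position, Il1r2 was the family gene with most cKO peaks.

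**Figure D2:**
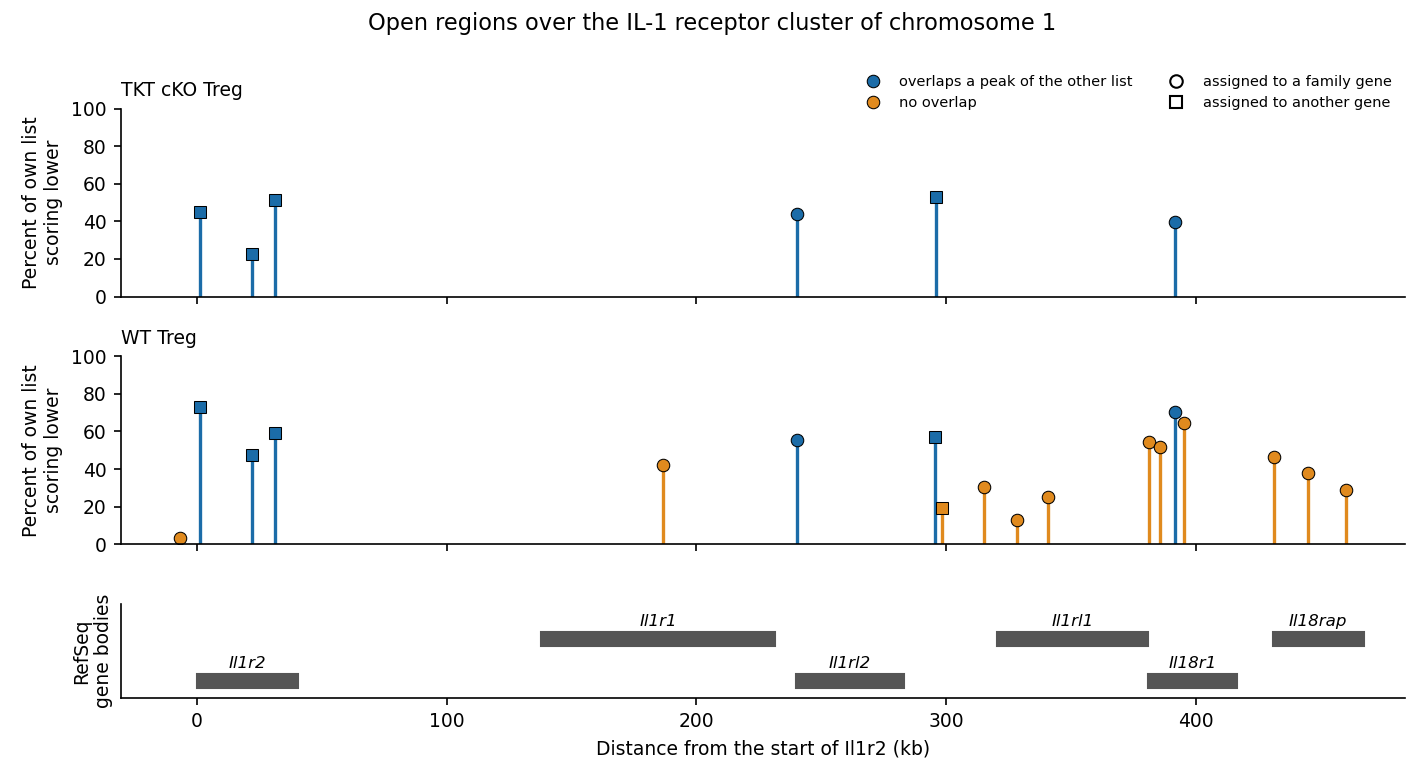
Peaks over the chromosome 1 cluster in TKT cKO Treg cells (top) and WT Treg cells (middle), by distance from the start of Il1r2 (x axis, kb) and percentage of the own list that scored lower (y axis), with RefSeq gene bodies at the bottom. The 6 cKO peaks within the cluster stand at Il1r2, Il1rl2, the gap before Il1rl1 and Il18r1, and each overlaps a WT peak. Il1r1, Il1rl1 and Il18rap carry WT peaks alone.

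The whole cluster, from the start of Il1r2 to the end of Il18rap, spans 467 kb and held 6 peaks in cKO cells and 17 in WT cells. Of the 17 WT peaks, 6 had a cKO partner (35.3%, 17.3 to 58.7), and the 56.1% of all WT peaks lies inside this interval. With lists of equal length the share in the cluster was 60.0%, against 83.0% of all WT peaks. By assigned gene, 2 of 12 WT peaks assigned to the receptor genes and 4 of 5 assigned to the predicted genes Gm16894, Gm37347 and Gm17970 had one. The Gm17970 peaks lie in the gap between Il1rl2 and Il1rl1. The shared one was 1160 bp wide in cKO cells and 2363 bp in WT cells and was the highest placed cKO peak of the cluster, above 52.9% of the cKO list. The longest stretches without a peak were 208 kb in cKO cells and 154 kb in WT cells, and each began inside Il1r2, behind its intron 5 peak, and ran past the Il1r1 promoter windows. A second stretch of 94.4 kb in cKO cells ran from the Gm17970 peak to intron 4 of Il18r1, across all of Il1rl1 and the promoter of Il18r1. In WT cells 5 peaks assigned to members, those of Il1rl1 and the promoter and intron 2 peaks of Il18r1, and 1 Gm17970 peak lay in that stretch.

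Outside the cluster, the accessory and inhibitory chains had the highest placed of the peaks assigned to members. Il1rap, the accessory chain of the IL-1, IL-33 and IL-36 receptors, had 1 peak in each library, over the GC-rich window printed above. It spanned chr16:26581351-26582294 in cKO cells (944 bp, above 50.4% of the list) and chr16:26581199-26582378 in WT cells (1180 bp, above 82.4%). Sigirr had 1 cKO peak and 2 WT peaks. The shared peak lay in intron 1 of 8, at chr7:141096247-141097135 in cKO cells (889 bp, above 68.3% of the list) and chr7:141096159-141097474 in WT cells (1316 bp, above 80.8%). The peak at its promoter, chr7:141099929-141100347, was listed in WT cells alone, was 419 bp wide and scored above 15.5% of the list.

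**Figure D3:**
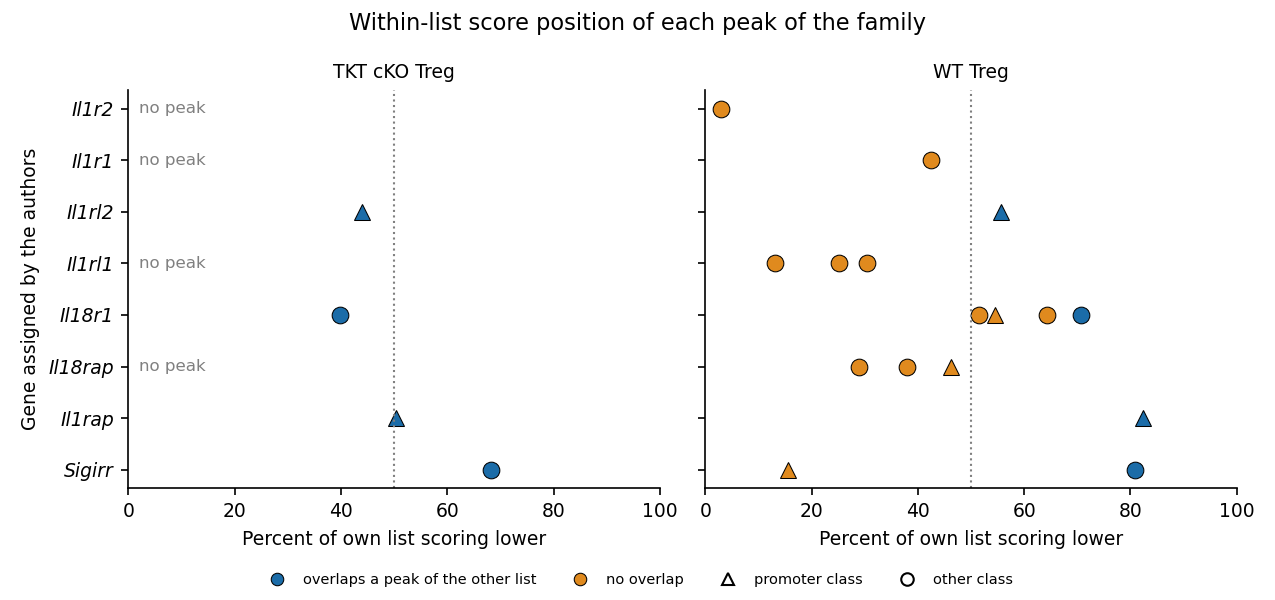
Percentage of the own list that scored lower (x axis) for each peak assigned to a family gene (rows), in TKT cKO Treg cells (left) and WT Treg cells (right); triangles are promoter class, colours mark overlap with the other list, and the dotted line is the list's median. Cells of the cKO panel without a peak are Il1r2, Il1r1, Il1rl1 and Il18rap, and the unpartnered WT peaks beyond the median belong to Il18r1.

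In the 4 shared pairs the cKO peak was the narrower one and lay inside its WT partner. The overlap took 67.6% to 97.2% of the WT width, and the centres were 9 to 125.5 bp apart. The shared cluster peaks assigned to Gm16894, Gm37347 and Gm17970 were also narrower in cKO cells. How often this holds over all shared pairs was not computed, so narrower cKO peaks are not shown to be particular to the family. Median widths were 1248 bp in the 4 WT peaks with a partner and 667 bp in the 12 without one. Of these 12, the peaks of Il1r2 (401 bp), Sigirr (419 bp), Il1rl1 (425 bp) and Il18rap (435 bp) were narrower than the narrowest peak of the whole cKO list, which had 465 bp. The distance from an unpartnered WT peak to the nearest cKO peak was 2.55 to 67.6 kb.

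**Figure D4:**
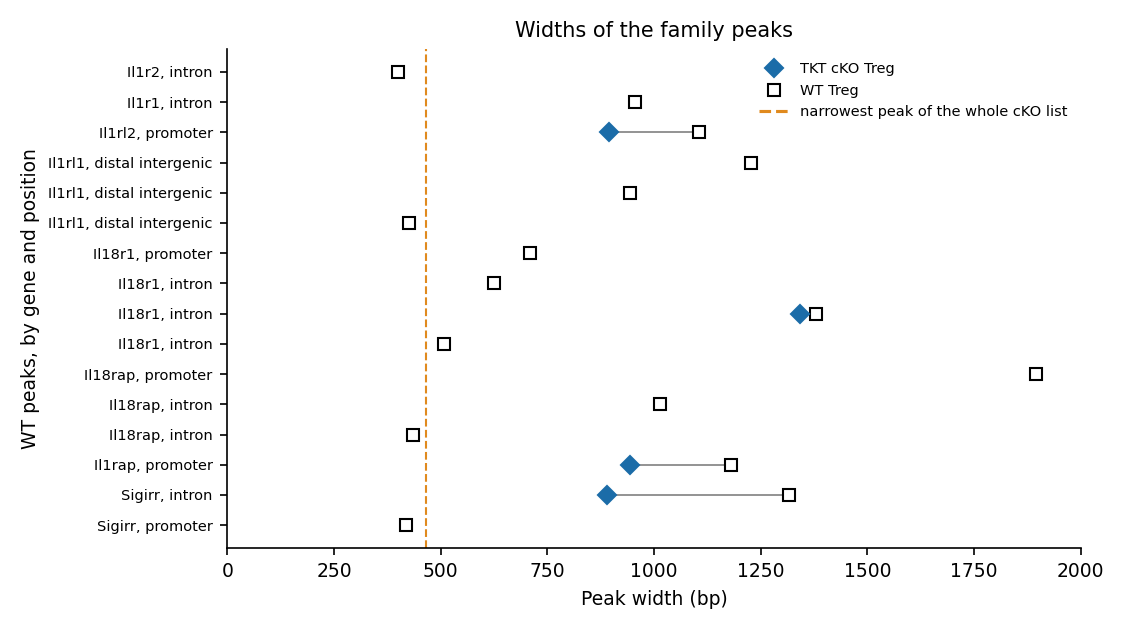
Width (x axis, bp) of each family peak in TKT cKO Treg cells (diamonds) and WT Treg cells (squares), 1 row per WT peak with lines joining overlapping peaks; the dashed line is the narrowest peak of the whole cKO list, 465 bp. The 4 cKO peaks are each narrower than their WT partners, and 4 unpartnered WT peaks lie left of the line.

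Genes that act with these receptors were described from lists chosen by role. Of 11 ligands and soluble inhibitors, 0 had a cKO peak and 3 had a WT peak. These were Il1rn, the IL-1 receptor antagonist, Il18, the ligand of the IL-18 receptor, and Il18bp, a soluble IL-18 inhibitor, with 1 WT peak each. None of the 3 overlapped a cKO peak (0 of 3, upper bound 56.1%), against 56.1% over all WT peaks. In the order named, the peaks scored above 29.7%, 49.0% and 24.0% of the WT list. Of all WT peaks of their class and score bin, 25.0%, 43.3% and 25.0% had a cKO partner. The other 8 ligand and inhibitor genes, among them those of IL-1α, IL-1β, IL-33 and the IL-36 ligands, had no peak in either library. The neuronal relatives Il1rapl1 and Il1rapl2 had none either. Of 16 genes of signalling next to the receptors, 14 had a peak in cKO cells and the same number in WT cells, and 27 of their 47 WT peaks had a cKO partner (57.4%, 43.3 to 70.5), close to the 56.1% of all WT peaks. Peli1, a ubiquitin ligase of the pathway, shared 4 of 9 WT peaks, Tnfaip3, which encodes the inhibitor A20, 5 of 9, and Tnip1, a partner of A20, 2 of 5. Traf6, which also had 5 WT peaks, shared 1. The kinase genes Irak1, Irak2, Irak3 and Irak4 each shared their promoter peak. Myd88 and Peli2 had no peak assigned in either library.

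Among 10 genes known from ST2-bearing tissue Treg cells, 8 had a cKO peak and 9 a WT peak, and 21 of their 42 WT peaks had a cKO partner (50.0%, 35.5 to 64.5). Rora, a nuclear receptor, shared 8 of 18 WT peaks, and Tnfrsf9, which encodes the costimulatory receptor 4-1BB, and Irf4, a factor of effector Treg cells, shared 3 of 4 each. Gata3, a factor of ST2-bearing Treg cells, shared its only WT peak. Klrg1, a surface marker of activated Treg cells, had no cKO peak and 4 WT peaks, the highest above 53.6% of the WT list. Of all genes with 4 WT peaks, 93.7% had a cKO peak. Pparg had none in either library. In the plot of lists by overlap share the family stands below the signalling and tissue Treg lists, and its interval overlaps both of theirs. By the authors' assignment, which gave the share of the tissue Treg list, the family share of 25.0% lies below the interval of that list. The family share by gene body, 41.2%, lies inside it, but the tissue Treg list was not counted by gene body. The difference between lists was not tested.

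**Figure D5:**
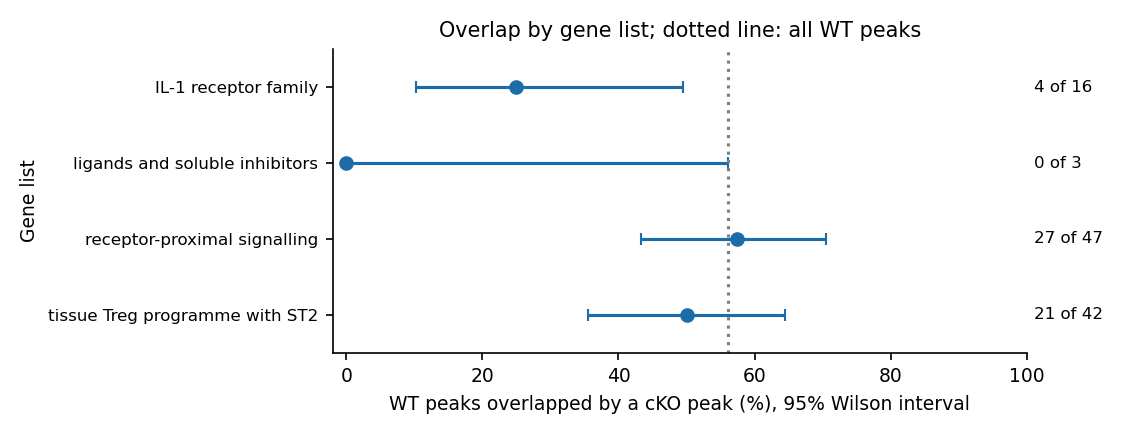
Percentage of WT peaks with a cKO partner (x axis) for each gene list (rows), with the 95% Wilson interval and the counts at the right; the dotted line is the share over all WT peaks, 56.1%. The family stands at 25.0%, the signalling list at 57.4% and the tissue Treg list at 50.0%.

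The cKO list was the shorter one in all, and the sequencing depth behind each list is unknown here. The peaks covered 20.7 Mb in cKO cells and 36.0 Mb in WT cells. The label of the cells was checked against 6 T cell and Treg genes (Foxp3, Il2ra, Ctla4, Ikzf2, Cd4 and Cd3e), all of which had peaks in both libraries. Of 33 markers of other cells, 10 had a cKO peak and 14 a WT peak. In all, 19459 genes carried a peak in either library, and the share among all genes was not computed. The marker counts are thus a weak check of the label and do not measure purity. Tkt had 1 promoter peak in each library, shared, which does not check the deletion because an open promoter says nothing of the floxed exons.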

How the data were processed

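ATAC-seq peak lists of 1 TKT cKO and 1 WT Treg library were used. The labels give total RNA as the molecule, although their protocol describes transposed DNA. Trimmomatic, FastQC, BWA and MACS2 and the build mm10 are named per the submitters' processing notes, whereas versions, caller settings, duplicate removal, Tn5 shift and blacklist were not given in the sources used here. Peaks of each library stand in a deposited file of their own. The deposited peak score is undefined in the file headers and was ranked only within its list. Read totals were not used, so depth is unknown and a peak absent from a list may lie under the threshold of the caller.

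Members and gene lists were chosen with earlier results of these data known. A peak counted as shared with at least 1 bp of overlap with the other list, and intervals are 95% Wilson intervals. The overlap code, tested on simulated peaks, differed from bedtools 2.31.1 at 0 of 34440 WT peaks. Score and width bins were equal parts of a list. RefSeq GRCm38.p6 gave gene bodies and promoter windows. Of 15292 matched symbols, 99.9% of the deposited gene bodies touched the RefSeq body. All 8 members were named. From the other lists the 3 genes with most WT peaks and those without a cKO peak were named, and Traf6, Gata3, Myd88, Peli2, Pparg and the Irak genes were added after their values were seen. Alternatives changed the overlap, score, width, list length and gene assignment. Python 3.11.15, pandas 2.3.3 and scipy 1.17.1 were used.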

Additional observations from a re-analysis of the deposited data

How the results depend on the processing

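No paired analysis was possible because each genotype has 1 library, which also left no replicate to drop. With the WT list reduced to as many peaks as the cKO list, 4 of 8 family WT peaks had a cKO partner (50.0%), against 83.0% of all WT peaks, 80.0% in the signalling list and 74.1% in the tissue Treg list. In that setting 5 members had a WT peak, and the share in the chromosome 1 cluster was 60.0%. Above the median score of each list, 2 members had a cKO peak and 4 had a WT peak. Both settings remove weak peaks by construction. In the other settings run, the family share of 25.0% ran from 25.0% to 41.2%, the highest with peaks assigned by gene body, and the members with a cKO peak numbered 3 to 6. All cKO peaks of the family overlapped a WT peak in every setting run. Assignment by gene body, and the settings for the cluster and the other lists, were chosen after the data were seen. Depth limits each absence of a peak.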

Other observations

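The surroundings of the cluster were read out to 300 kb on each side. Apart from the weak peak assigned to Il1r2, 12 peaks in cKO cells and 19 in WT cells lay there, and all 12 cKO peaks were shared. A cKO partner was found for 12 of the 19 WT peaks (63.2%, 41.0 to 80.9) and for 6 of 17 within the cluster (35.3%, 17.3 to 58.7). The share over all WT peaks, 56.1%, lies inside both intervals. Most of the surrounding peaks lay around Map4k4, a kinase gene before Il1r2, whose promoter peak was shared. Beyond Il18rap, the promoter of Mfsd9 had a shared peak that scored above 43.7% of the cKO list and above 74.7% of the WT list. The promoter of Slc9a2, a sodium-proton exchanger, had no cKO peak and a weak WT peak, above 6.26% of the list. The difference between the cluster and its surroundings was not tested.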
